A study of Mus musculus with 16 samples.

Results

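The results concern 10 genes of fluid and bicarbonate secretion by bile ducts, read in sorted mouse liver cells on 1-colour Agilent arrays. The genes were found by name in the array annotation, from a list drawn up with earlier results of these data known, and are 10 of 28034 gene names on the array. They are Sctr, Cftr, Ano1, Slc4a2, Slc4a4, Car2, Slc12a2, Aqp1, Aqp5 and Aqp8, and 13 probes carry them. All mice were of the strain c129/S3 and received a Purina 5015 diet. In the DDC groups the diet held 0.1% DDC (3,5-diethoxycarbonyl-1,4-dihydrocollidine, an agent that brings on a ductular reaction) for 2 weeks. Accutase released the liver cells, which were then sorted by flow cytometry with the antibody MIC1-1C3 (M) and with an antibody to CD133, the product of Prom1. The groups were M+133+ cells from DDC livers (n = 4), M-133- cells from DDC livers (n = 4), M+133+ cells from untreated livers (n = 4) and M-133- cells from untreated livers (n = 2). The M-133- gate is defined by the lack of both antigens and can hold hepatocytes, endothelium, stellate cells and blood cells together. The design text calls the samples biological replicates without naming animals, so the p-values measure the spread between these samples. One untreated sample of each sort had 2 repeat arrays, which were averaged, so that 16 arrays gave 14 samples.

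Cholangiocytes, the epithelial cells of bile ducts, dilute and alkalinise the bile that hepatocytes make. Secretin binds its receptor on these cells, cyclic AMP rises, and chloride leaves the cell through channels of the apical membrane, after which an exchanger returns the chloride and passes bicarbonate into the lumen. Carbonic anhydrase and sodium-bicarbonate cotransport supply the bicarbonate, a sodium-potassium-chloride cotransporter loads the chloride, and water follows through aquaporins.

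Levels are log2 signals relative to the 75th percentile of the same array, so 0 is the signal of a probe at that percentile, and levels of different probes cannot be set against each other. That percentile ranged over arrays from 603 to 2732 units of intensity. It was 603, 706 and 2081 on the M-133- untreated arrays and 1690 to 2732 on the M+133+ untreated arrays. In DDC livers it was 931 to 2411 on M+133+ arrays and 1418 to 2111 on M-133- arrays. The scanner software's own test put 60.3% to 77.3% of an array's probes well above background. Prom1 had levels of 0.81, 1.88, 2.23 and 1.10 in M+133+ DDC samples and -7.32, -3.52, -6.43 and -8.63 in M-133- DDC samples. It had 1.72, 1.82, 1.13 and 1.67 in M+133+ untreated samples and -7.74 and -8.35 in M-133- untreated samples, in keeping with the sort labels. The summed signal of 10 bile duct markers, in multiples of the 75th percentile, was 164 to 572 in M+133+ DDC, 12.8 to 55.5 in M-133- DDC, 161 to 186 in M+133+ untreated and 1.00 to 2.44 in M-133- untreated samples. The sum of 9 hepatocyte markers was 67.8 to 118 in M+133+ DDC, 253 to 467 in M-133- DDC, 50.1 to 81.2 in M+133+ untreated and 280 to 765 in M-133- untreated samples. Such a sum follows its brightest genes. The median log2 difference of the 9 genes, M+133+ over M-133-, was -5.97 in DDC and -6.64 in untreated livers. In the fit described below 8 of them were lower in each treatment, without Alb (-0.65) in DDC and Ttr (0.26) in untreated livers. The sum of 10 endothelial markers was 1.42 to 4.59 in M+133+ DDC, 14.1 to 102 in M-133- DDC, 4.26 to 14.2 in M+133+ untreated and 277 to 487 in M-133- untreated samples. In such bulk RNA, fewer cells of a type and less RNA per cell cannot be told apart. The arrays lay on 5 slides, and no slide held both sorts of DDC livers, so slide and sort cannot be compared within a slide there.

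The sort separated most of the genes, and not all in the same direction. In DDC livers, Ano1, Aqp5, Slc12a2, Cftr, Slc4a4 and Car2 were higher in M+133+ than in M-133- cells, Aqp8 and Aqp1 were lower, and Sctr and Slc4a2 did not pass the test. In untreated livers, Ano1, Aqp5, Cftr and Slc4a2 were higher, Aqp8 was lower, and Slc4a4, Sctr, Slc12a2, Car2 and Aqp1 did not pass. A gene was called at an adjusted p under 0.05 in a limma fit over 23312 genes with Benjamini-Hochberg adjustment. In DDC livers 6 of the 10 were called higher, where 6.44% of all genes were, and 2 were called lower, where 6.48% were. In untreated livers 4 of the 10 were called higher, where 3.63% of all genes were, and 1 was called lower, where 5.16% were. The median log2 difference of the 10 genes was 3.25 in DDC livers and 2.27 in untreated livers, where that of all genes was 0.31 and -0.07. With the slide as a fixed block 3 members were called higher and 1 lower in DDC livers. Cftr (adjusted p = 0.0582), Car2 (adjusted p = 0.124), Slc4a4 (adjusted p = 0.533) and Aqp1 (adjusted p = 0.0574) lost their calls there. In untreated livers Aqp8 (adjusted p = 0.0517) and Aqp5 (adjusted p = 0.0695) were no longer called with this block. The titles open with a number or a number and letter, whose meaning the labels do not give. All 4 such prefixes of the DDC samples occur in both sorts, and both prefixes of the M-133- untreated samples also occur in M+133+ untreated samples. With this prefix as a block, Cftr (adjusted p = 0.0777), Aqp5 (adjusted p = 0.0558) and Slc4a2 (adjusted p = 0.108) lost their calls in untreated livers. Their log2 differences were 4.55, 5.06 and 1.76 with the block and 4.45, 5.06 and 1.96 without it. Ano1 (adjusted p = 0.0112) and Aqp8 (adjusted p = 0.0448) were still called with the block. In DDC livers 6 members were then called higher and 2 lower. Deviations of samples with the same prefix correlated between -0.01 and 0.11.

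**Figure D1:**
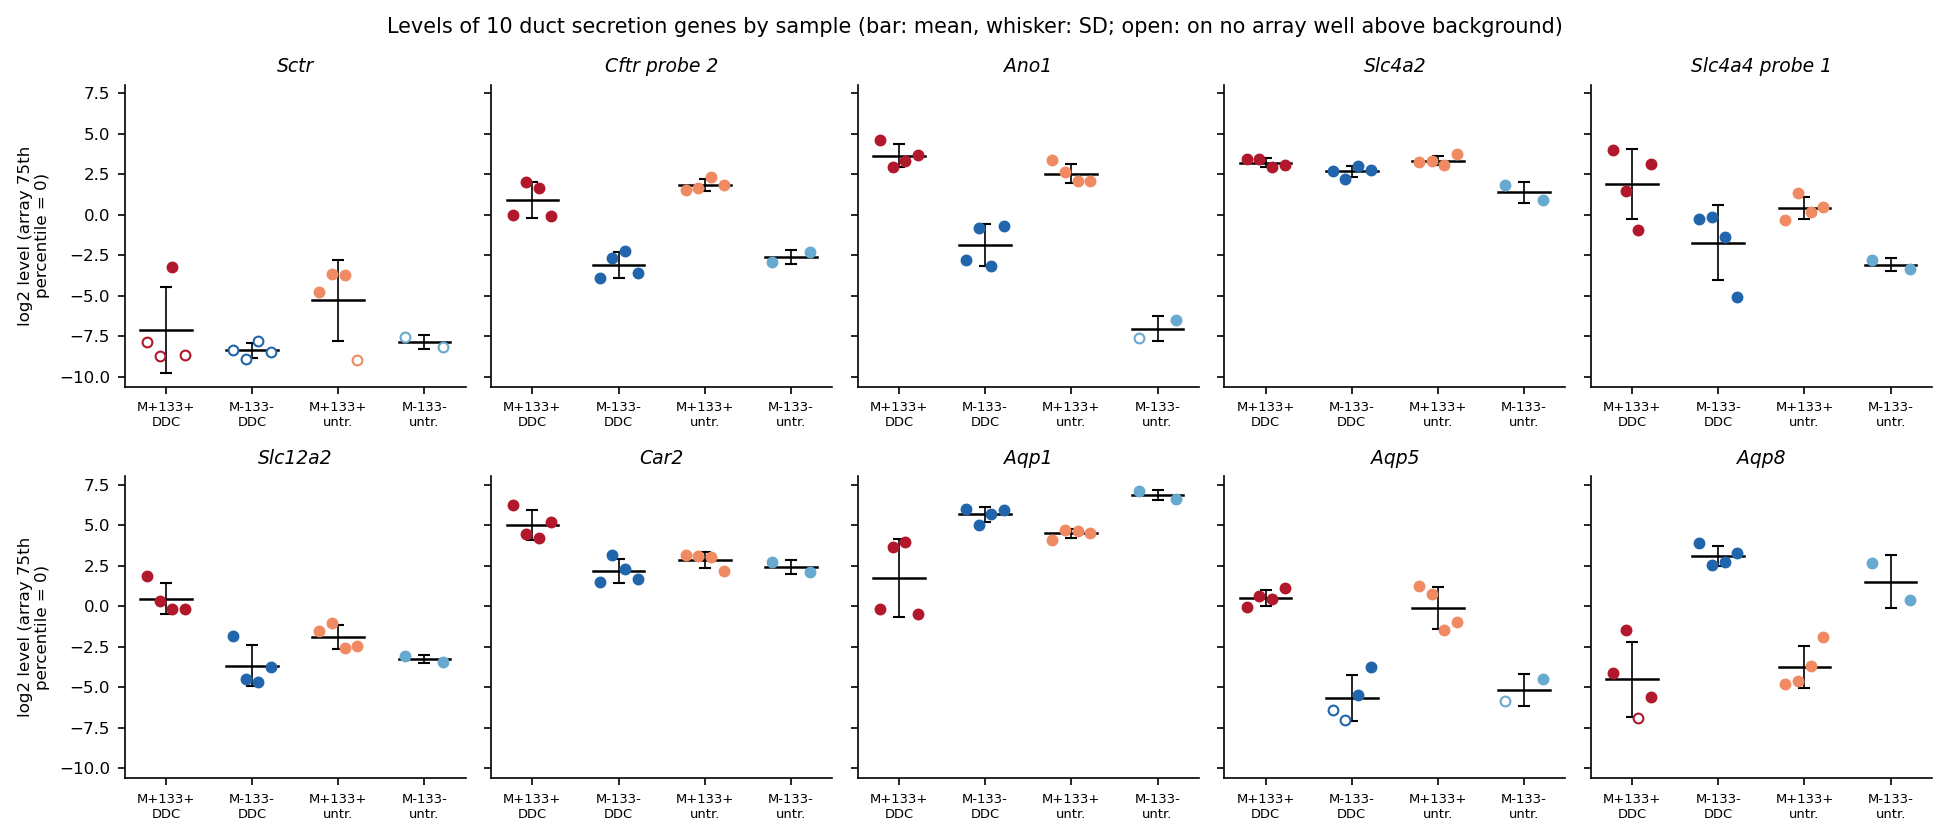
Log2 level of each of the 10 genes in every sample, relative to the array's 75th percentile, with the group mean and SD. Ano1, Cftr and Aqp5 lie higher in all M+133+ samples than in any M-133- sample, Aqp8 and Aqp1 lie lower within each treatment, and Sctr is near the floor in most samples.

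Sctr was above background on few arrays. It encodes the secretin receptor, and its single probe lies on chromosome 1 at 121950915 to 121952017 (mm9), with its parts on both sides of an intron. It was well above background on 1 of 4 M+133+ DDC arrays, 3 of 5 M+133+ untreated arrays and no M-133- array. Its level was -7.88, -8.75, -3.20 and -8.68 in M+133+ DDC samples and -8.34, -8.89, -7.80 and -8.46 in M-133- DDC samples. In untreated livers it was -4.79, -3.65, -3.71 and -8.95 in M+133+ samples and -7.56 and -8.15 in M-133- samples. So 3 of 4 untreated and 1 of 4 DDC samples of M+133+ cells carried the signal, and the groups overlapped in both treatments. The 2 repeat arrays of M+133+ untreated sample 1 read -8.00 and -1.59, a gap wider than any between samples of the gene. The log2 difference was 1.25 (SE 1.28, adjusted p = 0.596) in DDC livers and 2.58 (SE 1.57, adjusted p = 0.429) in untreated livers.

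Cftr, the cyclic AMP gated chloride channel whose loss causes cystic fibrosis, was read by 2 probes on chromosome 6. Probe 1 starts at base 1922 of the transcript and probe 2 at base 6017, near its end, and 10 spots of probe 2 were printed on each array. The sequence of probe 1 is shown because it alone separated the sorts by detection, and it lies at chr6:18217739-18217798 in mm9.
Cftr probe 1: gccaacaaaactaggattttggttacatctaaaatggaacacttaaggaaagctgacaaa
Probe 1 was well above background on all 9 M+133+ arrays and on none of the 7 M-133- arrays. Its level was -0.31, 1.38, 0.16 and -0.41 in M+133+ DDC samples and -8.55, -9.26, -8.30 and -8.62 in M-133- DDC samples. Its level in untreated livers was 0.24, 0.98, 1.62 and 1.56 in M+133+ samples and -7.73 and -8.39 in M-133- samples. The 2 sorts lay far apart in both treatments, and the M-133- values are readings of background. A bound was therefore taken as the M+133+ mean against the lowest signal that counts as well above background on each M-133- array. By this bound probe 1 was at least 111-fold higher in M+133+ DDC cells and at least 140-fold higher in M+133+ untreated cells. A limma fit over all kept probes took the background readings as they stood, so its p-values do not belong to the bounds. Its log2 difference was 8.89 (adjusted p = 1.08e-06) in DDC livers and 9.16 (adjusted p = 1.1e-05) in untreated livers.

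Probe 2 of Cftr gave the same direction with a smaller difference. It was well above background on all 16 arrays, M-133- cells included. Its level was -0.01, 2.02, 1.67 and -0.09 in M+133+ DDC samples and -3.92, -2.64, -2.22 and -3.57 in M-133- DDC samples. In untreated livers it was 1.55, 1.68, 2.35 and 1.83 in M+133+ samples and -2.92 and -2.29 in M-133- samples. No M-133- sample reached the level of any M+133+ sample. The difference was 3.99 on the log2 scale, or 15.8-fold (SE 0.63, adjusted p = 0.000646, limma), in DDC livers. It was 4.45, or 21.9-fold (SE 0.77, adjusted p = 0.00209, limma), in untreated livers. The SD between the 10 spots of an array was 0.04 to 0.60 on the log2 scale, well under the distance between the sorts. Within slides that held both sorts of untreated livers, the difference was 4.04 on slide 2 and 3.84 on slide 4. Each such untreated difference, here and for the genes below, sets 1 array of each sort against the other. Both M-133- arrays were repeat arrays of M-133- untreated sample 2, so the values of the 2 slides are not independent.

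**Figure D2:**
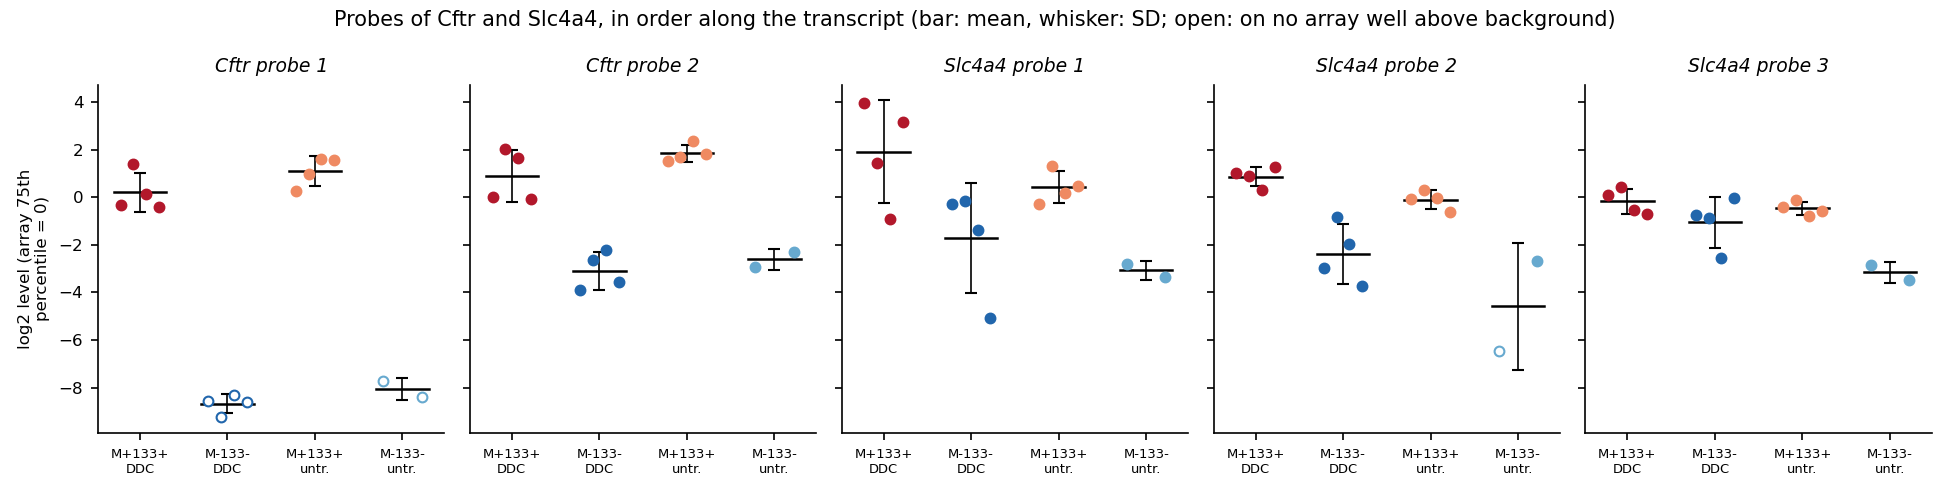
Log2 level of the 2 Cftr and 3 Slc4a4 probes in every sample, with group mean and SD, ordered along the transcript. Cftr probe 1 has no M-133- sample above background, whereas probe 2 is detected in every M-133- sample, and probe 3 of Slc4a4 separates the sorts least in DDC livers.

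The window around the Cftr start was searched because the human gene is known to carry a variant of the cyclic AMP response element there. The promoter, from RefSeq on GRCm38.p6, spans chr6:18170437-18170736 on the plus strand, from 250 bases before the start to 50 after it, and capitals mark the variant element TGACATCA, a motif added after the values were seen.
Cftr promoter: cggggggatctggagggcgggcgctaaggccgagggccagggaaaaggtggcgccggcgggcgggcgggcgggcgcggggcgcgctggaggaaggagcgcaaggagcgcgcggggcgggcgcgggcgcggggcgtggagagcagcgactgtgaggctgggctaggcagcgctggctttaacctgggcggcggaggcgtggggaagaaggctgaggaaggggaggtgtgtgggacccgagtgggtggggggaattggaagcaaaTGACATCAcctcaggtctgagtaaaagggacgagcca
TGACATCA begins 13 bases after the annotated start, and 3.62% of 32851 promoters of this length hold it on either strand. Of the 7 members with a promoter in the RefSeq table, Cftr was the one that held it. The full palindromic element TGACGTCA was in no member's window and in 1.79% of all promoters. A match describes the letters in the window and is no measurement of binding.

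Ano1 had the largest fitted difference of the 10 genes between the sorts of untreated livers. It encodes a calcium-activated chloride channel that purinergic signalling opens in cholangiocytes, and smooth muscle cells carry it too. Its level was 4.59, 2.97, 3.34 and 3.71 in M+133+ DDC samples and -2.78, -0.85, -3.19 and -0.69 in M-133- DDC samples. Untreated livers gave 3.35, 2.67, 2.10 and 2.06 in M+133+ samples and -7.59 and -6.49 in M-133- samples, where 1 of 3 arrays was well above background. All M+133+ samples lay above all M-133- samples, and the M-133- DDC samples lay well above the M-133- untreated ones. Ano1 was 46.1-fold higher in M+133+ cells of DDC livers (log2 difference 5.53, SE 0.66, adjusted p = 6.58e-05, limma). In untreated livers the log2 difference was 9.59 (SE 0.81, adjusted p = 7.47e-06, limma), against M-133- readings that were mostly background. With each M-133- untreated array at its detection limit wherever Ano1 read below it, the M+133+ cells were 326-fold higher. Within slides the untreated difference was 9.59 on slide 2 and 8.81 on slide 4.

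Slc4a2 encodes AE2, the exchanger that passes bicarbonate out of the cholangiocyte in return for chloride. Its level was 3.45, 3.43, 2.93 and 3.06 in M+133+ DDC samples and 2.72, 2.20, 3.03 and 2.78 in M-133- DDC samples. Its level in untreated livers was 3.23, 3.35, 3.08 and 3.73 in M+133+ samples and 1.84 and 0.94 in M-133- samples. The M+133+ levels were tight across both treatments, and the sorts overlapped in DDC livers but not in untreated livers. The log2 difference was 0.53 (SE 0.33, adjusted p = 0.336, limma) in DDC livers. It was 1.96, or 3.88-fold (SE 0.40, adjusted p = 0.00644, limma), in untreated livers, with 1.26 within slide 2 and 3.53 within slide 4. The repeat arrays of M-133- untreated sample 2 on these slides read 1.68 and 0.20. Without M-133- untreated sample 2 the untreated difference of Slc4a2 was 1.51 (adjusted p = 0.0977).

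Slc4a4 encodes NBCe1, a cotransporter that brings bicarbonate into epithelial cells with sodium. It had 3 probes on chromosome 5, starting at bases 2234, 5040 and 7412 of the transcript, and probe 1 was the brightest and stood for the gene. Probe 1 is shown because its call depended on single samples, and it lies at chr5:89626676-89626735 in mm9.
Slc4a4 probe 1: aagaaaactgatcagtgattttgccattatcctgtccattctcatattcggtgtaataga
The level by probe 1 was 3.97, 1.46, -0.92 and 3.15 in M+133+ DDC samples and -0.29, -0.15, -1.38 and -5.09 in M-133- DDC samples. In untreated livers it was -0.29, 1.33, 0.18 and 0.48 in M+133+ samples and -2.79 and -3.36 in M-133- samples. In DDC livers the sorts overlapped, with M+133+ sample 3 below 2 of the M-133- samples, and in untreated livers they did not. By probe 1 the log2 difference was 3.64 (SE 1.12, adjusted p = 0.0442, limma) in DDC livers and 3.49 (SE 1.37, adjusted p = 0.154, limma) in untreated livers. The call in DDC livers was lost when any of 11 of the 14 samples was left out, with Slc4a4 differences from 2.52 to 3.79. Over all 14 such fits the difference ran from 2.52 to 4.59.

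The other probes of Slc4a4 gave a different set of calls. By probe 2 the level was 1.01, 0.88, 0.30 and 1.28 in M+133+ DDC samples, and its lowest and highest values in M-133- DDC samples were -3.74 and -0.84. In untreated livers probe 2 ran between -0.60 and 0.33 in M+133+ samples and read -6.47 and -2.69 in M-133- samples. Its sorts overlapped in neither treatment. Probe 2 differed by 3.25 (SE 0.81, adjusted p = 0.0152, limma over all kept probes) in DDC livers and by 4.49 (SE 0.99, adjusted p = 0.0114) in untreated livers. Probe 3 differed by 0.88 (SE 0.62, adjusted p = 0.401) in DDC livers, where the sorts overlapped, and by 2.69 (SE 0.75, adjusted p = 0.0401) in untreated livers. In untreated livers 2 of the 3 probes were thus called higher in M+133+ cells, and in DDC livers a different pair of probes was. On M-133- untreated sample 2 the repeat arrays read -0.45 and -4.94 with probe 2.

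Car2 encodes carbonic anhydrase 2, the cytosolic enzyme that forms bicarbonate from carbon dioxide and water, and red cells hold it as well. Its level was 6.25, 4.48, 4.19 and 5.22 in M+133+ DDC samples and 1.52, 3.16, 2.30 and 1.70 in M-133- DDC samples. Untreated livers gave 3.14, 3.11, 3.06 and 2.16 in M+133+ samples and 2.72 and 2.12 in M-133- samples. The sorts stood apart in DDC livers and overlapped in untreated livers, and the M+133+ DDC samples were above all others. Car2 was 7.28-fold higher in M+133+ cells of DDC livers (log2 difference 2.86, SE 0.48, adjusted p = 0.000943, limma). The difference in untreated livers was 0.45 (SE 0.58, adjusted p = 0.785, limma). The summed signal of 8 erythroid markers was 0.24 to 1.26 in M+133+ DDC, 12.6 to 93.7 in M-133- DDC, 0.28 to 0.77 in M+133+ untreated and 15.4 to 59.2 in M-133- untreated samples, and its part in the level of Car2 was not tested.

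Slc12a2 encodes NKCC1, the cotransporter that loads chloride across the basolateral membrane, and its probe lies on chromosome 18. Its level was 1.85, 0.31, -0.17 and -0.17 in M+133+ DDC samples and -1.86, -4.47, -4.65 and -3.74 in M-133- DDC samples. In untreated livers it was -1.52, -1.03, -2.59 and -2.46 in M+133+ samples and -3.06 and -3.44 in M-133- samples. The sorts did not overlap in either treatment, but the gap was narrow in untreated livers. Slc12a2 was 17.5-fold higher in M+133+ cells of DDC livers (log2 difference 4.13, SE 0.74, adjusted p = 0.00162, limma). The difference in untreated livers was 1.35 (SE 0.91, adjusted p = 0.491, limma).

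The 3 aquaporins took different sides of the sort. Aqp5, the apical water channel of salivary and lacrimal glands, was higher in M+133+ cells. Its level was -0.07, 0.60, 0.46 and 1.11 in M+133+ DDC samples and -6.43, -7.01, -5.47 and -3.75 in M-133- DDC samples, where 2 of 4 arrays were well above background. Its level in untreated livers was 1.25, 0.76, -1.48 and -0.98 in M+133+ samples and -5.87 and -4.48 in M-133- samples. The sorts lay apart in both treatments. Aqp5 was 73.1-fold higher in M+133+ cells of DDC livers (log2 difference 6.19, SE 0.82, adjusted p = 0.000153, limma) and 33.4-fold higher in those of untreated livers (5.06, SE 1.01, adjusted p = 0.00534). Within slides the untreated difference of Aqp5 was 7.84 on slide 2 and 2.01 on slide 4, and without M-133- untreated sample 1 it was 4.37 (adjusted p = 0.0965).

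Aqp1, a water channel of cholangiocytes that endothelium and red cells also carry, was lower in M+133+ cells of DDC livers. Its level was -0.16, 3.63, 3.98 and -0.49 in M+133+ DDC samples and 6.02, 5.03, 5.69 and 5.94 in M-133- DDC samples. Untreated livers gave 4.08, 4.71, 4.65 and 4.55 in M+133+ samples and 7.10 and 6.65 in M-133- samples. The sorts did not overlap in either treatment, and the M+133+ DDC samples split, with samples 1 and 4 far below samples 2 and 3. The log2 difference was -3.93 (SE 0.80, adjusted p = 0.00408, limma) in DDC livers, which is 15.2-fold lower. It was -2.38 (SE 0.98, adjusted p = 0.183, limma) in untreated livers, with -1.99 within slide 2 and -2.73 within slide 4. The endothelial marker sums given above were also lower in M+133+ cells, and their part in the Aqp1 difference was not tested.

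Aqp8, a water channel known in the canalicular membrane and vesicles of hepatocytes, was lower in M+133+ cells in both treatments. Its level was -4.11, -1.49, -6.88 and -5.59 in M+133+ DDC samples and 3.89, 2.52, 2.73 and 3.32 in M-133- DDC samples. In untreated livers it was -4.81, -4.60, -3.70 and -1.90 in M+133+ samples and 2.67 and 0.38 in M-133- samples. The sorts lay apart throughout, and 1 M+133+ DDC array was not well above background. Aqp8 was 199-fold lower in M+133+ cells of DDC livers (log2 difference -7.63, SE 1.03, adjusted p = 0.000180, limma) and 38.8-fold lower in those of untreated livers (-5.28, SE 1.26, adjusted p = 0.0166). Within slides the untreated difference of Aqp8 was -5.45 on slide 2 and -1.73 on slide 4, and without M-133- untreated sample 1 it was -4.13 (adjusted p = 0.232). The hepatocyte marker sums lay on the same side, lower in all M+133+ samples, and their part in the Aqp8 difference was not tested.

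The promoters of the members were also searched on both strands for the cyclic AMP element variant TGACGCAA, for GTTAAT from the HNF1 site, for ATTGAT from the HNF6 site and for its relative ATCGAT. Aqp8, shown here as the member furthest on the M-133- side, held the single match. Its promoter spans chr7:123462044-123462343 on the plus strand of GRCm38.p6, from RefSeq, and capitals mark ATTGAT.
Aqp8 promoter: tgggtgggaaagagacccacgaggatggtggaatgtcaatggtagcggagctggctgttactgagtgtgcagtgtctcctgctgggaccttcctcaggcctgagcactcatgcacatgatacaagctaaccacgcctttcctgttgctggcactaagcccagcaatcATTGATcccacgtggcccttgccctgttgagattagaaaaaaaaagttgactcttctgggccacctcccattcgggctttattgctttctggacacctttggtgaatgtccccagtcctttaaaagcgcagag
ATTGAT begins 83 bases before the start, and 7.54% of promoters hold it or its reverse ATCAAT. Of all promoters 7.10% held GTTAAT or ATTAAC, 0.925% held ATCGAT and 0.49% held TGACGCAA or TTGCGTCA.

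Fewer genes were called with DDC feeding than between the sorts, among the 10 members and among all genes alike. Of all genes, 56 were called with DDC in M+133+ cells and 237 in M-133- cells. Between the sorts 2050 were called in untreated livers and 3011 in DDC livers. Few calls among the members are therefore no result particular to them. In M+133+ cells none of the 10 genes was called in limma, where 0.146% of all genes were called higher and 0.0944% lower, and 3 members had an unadjusted p under 0.05. Those 3 were Car2, Aqp1 and Slc12a2, and in each the DDC and untreated samples of M+133+ cells did not overlap. Car2 averaged 5.04 ± 0.92 in M+133+ DDC samples and 2.87 ± 0.47 in M+133+ untreated samples (SD, n = 4 each), a log2 difference of 2.17 (SE 0.48, adjusted p = 0.0777). Slc12a2 averaged 0.45 ± 0.96 in M+133+ DDC and -1.90 ± 0.75 in M+133+ untreated samples, a difference of 2.35 (SE 0.74, adjusted p = 0.210). Aqp1 averaged 1.74 ± 2.39 in M+133+ DDC and 4.50 ± 0.29 in M+133+ untreated samples, a difference of -2.76 (SE 0.80, adjusted p = 0.183). Within slides 3 and 4 the DDC difference was 2.28 and 2.55 for Car2, 2.89 and 2.28 for Slc12a2, and -2.95 and -2.80 for Aqp1. Without M+133+ DDC sample 3, Car2 passed the threshold (2.45, adjusted p = 0.0486). The other members differed by -1.85 (Sctr) to 1.49 (Slc4a4), with overlapping groups.

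**Figure D3:**
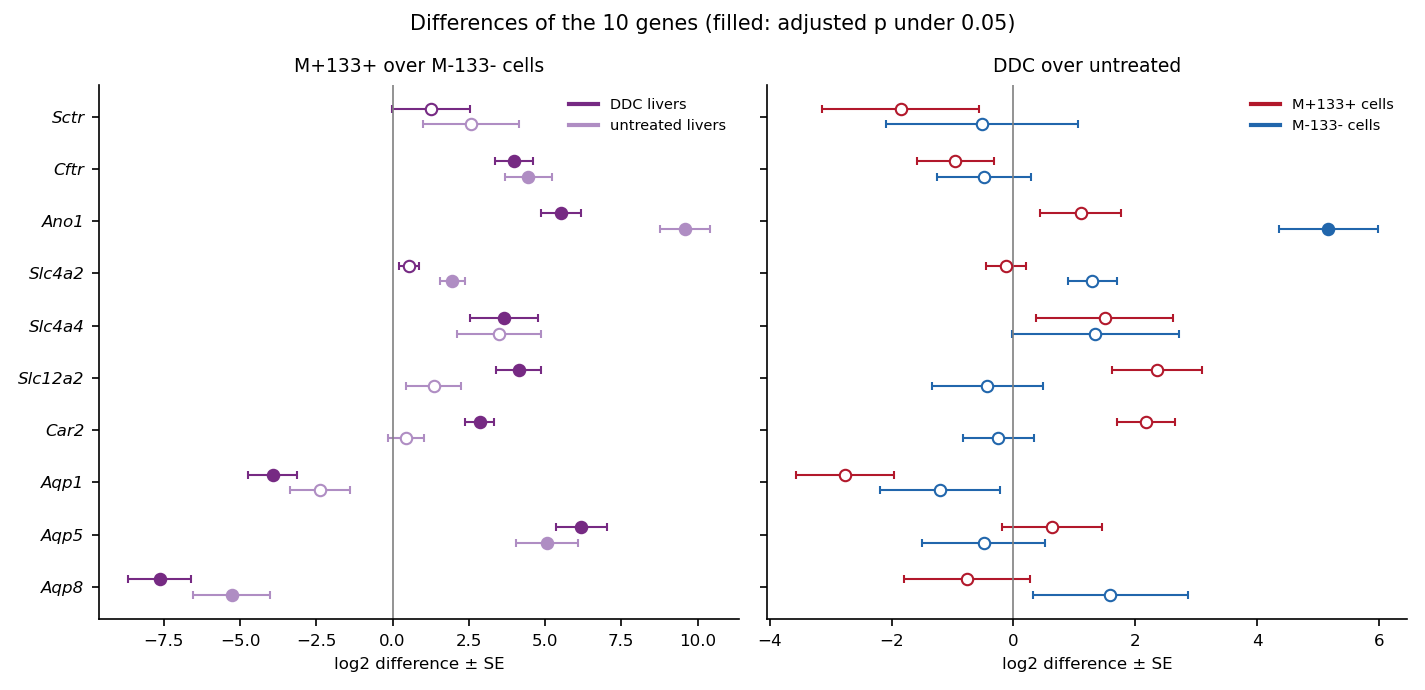
Log2 difference with its SE for each gene, M+133+ over M-133- cells on the left and DDC over untreated on the right, filled where the adjusted p was under 0.05. The sort differences reach from -7.63 for Aqp8 in DDC livers to 9.59 for Ano1 in untreated livers, and Ano1 in M-133- cells is the filled point on the right.

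Within the M+133+ DDC group, samples 1 and 4 stood apart from samples 2 and 3 in several genes. Cftr probe 2 and Aqp1 were lower in samples 1 and 4, whereas Slc4a4 probe 1 and Car2 were higher there. Samples 1 and 2 shared a slide, as did samples 3 and 4, so the split runs across slides. Of 9 marker sums, 4 split the same samples, and among 4 samples a given split arises easily by chance. The bile duct sum was 572, 164, 209 and 318 in samples 1 to 4, and the stellate cell and fibroblast sum was 18.8, 8.37, 3.56 and 50.6. The Kupffer cell and macrophage sum was 1.29, 14.6, 7.20 and 0.40, lower in samples 1 and 4, and the lymphocyte sum was 2.77, 0.42, 0.40 and 0.60. The endothelial sum, at 4.59, 1.71, 2.93 and 1.42, did not split this way, nor did the remaining sums. The part of these cell types in the split was not tested. This split is a description chosen after the values were seen, and no test was made on it.

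In M-133- cells Ano1 rose with DDC, with a log2 difference of 5.16 (SE 0.81, adjusted p = 0.00681, limma) against untreated readings that were mostly background. It was 15.2-fold higher with each untreated array at its detection limit wherever Ano1 read below it. It was 1 member called higher of 10, where 0.613% of all genes were called higher, and no member was called lower, where 0.403% of all genes were. Ano1 averaged -1.87 ± 1.29 in M-133- DDC samples (SD, n = 4) and -7.04 ± 0.78 in M-133- untreated samples (SD, n = 2), and 4 of 4 arrays against 1 of 3 were well above background. The difference was 4.81 within slide 1 and 4.22 within slide 2. The size and the call depended on the background treatment, since the difference was 1.48 (adjusted p = 0.236) with normexp background correction. It was 4.62 (adjusted p = 0.0860) without M-133- untreated sample 1. The bile duct marker sum was also higher in M-133- DDC than in M-133- untreated samples (12.8 to 55.5 against 1.00 to 2.44), with Spp1 and Sox9 among its 10 genes called higher. The stellate cell and fibroblast sum was 168 to 377 in M-133- DDC and 73.4 to 120 in M-133- untreated samples. Of its 10 genes Des, Ngfr and Rgs5 were called higher, by 5.48, 5.01 and 3.56 on the log2 scale. The smooth muscle sum was 42.2 to 58.7 in M-133- DDC and 33.0 to 39.2 in M-133- untreated samples, with Des the called gene of its 8. The part of these cell types in the Ano1 difference was not tested.

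The other members of the set in M-133- cells did not pass. Slc4a2 averaged 2.68 ± 0.35 in M-133- DDC (n = 4) and 1.39 ± 0.64 in M-133- untreated samples (n = 2), with no overlap and a difference of 1.29 (SE 0.40, adjusted p = 0.164). Aqp1 differed by -1.21 (SE 0.98, adjusted p = 0.699), also with no overlap, and Aqp8 by 1.59 (SE 1.26, adjusted p = 0.686). Across all genes the median DDC difference in M-133- cells was -0.36, and -0.76 with normexp or 0.06 with quantile normalization, so small member differences have no settled direction there.

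Whether the sort difference itself changed with DDC was tested as an interaction, which called no member in limma, where 0.0601% of all genes were called higher and 0.197% lower. Of the 10 genes, 4 had an unadjusted p under 0.05. The sort difference of Ano1 was smaller in DDC livers, with a log2 interaction of -4.06 (adjusted p = 0.158, SE 1.05). With quantile normalization it was -5.11 and passed (adjusted p = 0.0351). Car2 had an interaction of 2.42 (SE 0.75, adjusted p = 0.274), Slc12a2 of 2.78 (SE 1.17, adjusted p = 0.444) and Slc4a2 of -1.42 (SE 0.52, adjusted p = 0.378). So the calls of Car2 and Slc12a2 in DDC livers alone, and of Slc4a2 in untreated livers alone, are not shown to differ between treatments.

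Genes that work with the members were read from 6 lists. Of all genes, 6.44% were called higher and 6.48% lower in DDC livers, and 3.63% higher and 5.16% lower in untreated livers. Counts of 1 or 2 genes in lists this short lie close to these shares and are no result about a list. Of 20 genes of cyclic AMP signalling, 1 was called higher and 2 lower in DDC livers, and 1 higher and 1 lower in untreated livers. Ezr, the ezrin that ties channels to the apical cytoskeleton, was 13.8-fold higher in M+133+ cells of DDC livers (adjusted p = 0.000432) and 6.72-fold higher in untreated livers (adjusted p = 0.0228). Pdzk1, a scaffold of transporters, was lower by 10.6-fold and 11.3-fold in the same order (adjusted p = 0.00390 and 0.0178). Prkar2a, a regulatory subunit of protein kinase A, was 4.01-fold lower in DDC livers (adjusted p = 0.0168). The catalytic and cyclase genes of the list were not called.

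Of 15 tested chloride channel and purinergic receptor genes, 3 were called higher and 3 lower in DDC livers, and 3 higher and 1 lower in untreated livers. Itpr3, the calcium release channel of the apical pole of cholangiocytes, was 130-fold higher in M+133+ cells of DDC livers (adjusted p = 0.000894). P2ry2, a receptor for luminal ATP, was 61.9-fold higher in untreated livers (adjusted p = 0.0120), and Ano6, a relative of Ano1, was 24.3-fold higher there (adjusted p = 0.00152). P2ry4, another nucleotide receptor, was lower in M+133+ cells, with a log2 difference of -7.03 in DDC livers (adjusted p = 0.00275) and -5.79 in untreated livers (adjusted p = 0.0428). It was well above background on 1 of 4 M+133+ DDC and 2 of 5 M+133+ untreated arrays, and P2ry2 on 1 of 3 M-133- untreated arrays. On 3 of 4 M-133- DDC arrays Itpr3 was well above background. P2ry1 was 7.18-fold lower in DDC livers (adjusted p = 0.0463).

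Of 15 exchanger and cotransporter genes, 2 were called higher and 1 lower in DDC livers, and 1 in each direction in untreated livers. Slc26a3, a chloride-bicarbonate exchanger known from the gut, averaged 0.57 in M+133+ DDC and -8.49 in M-133- DDC cells, where no array was above background. Against their detection limit it was at least 144-fold higher in M+133+ DDC cells. The limma fit used the background readings as they stood and gave a log2 difference of 9.07 (adjusted p = 0.00291). Slc9a2, a sodium-proton exchanger, was higher by 7.26 on the log2 scale in DDC livers (adjusted p = 0.000225) and by 5.00 in untreated livers (adjusted p = 0.0191). On 2 of 4 M-133- DDC arrays Slc9a2 was well above background. Slc4a1, the red cell exchanger, was lower by 29.2-fold in DDC livers and 59.3-fold in untreated livers (adjusted p = 0.00145 and 0.00257).

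Of 13 tested carbonic anhydrases other than Car2, 3 were called higher and 2 lower in DDC livers, and 1 higher and 3 lower in untreated livers. Car9, a membrane-bound form, was 164-fold higher in M+133+ cells of DDC livers (adjusted p = 0.00307). In untreated livers its level was -1.14 in M+133+ cells and -7.84 in M-133- cells, with no M-133- array above background. Against the detection limit Car9 was at least 29.7-fold higher there. The limma fit used the background readings as they stood and gave a log2 difference of 6.71 (adjusted p = 0.0279). Car4, another membrane-bound form, was 87.9-fold higher in DDC livers (adjusted p = 0.00682). Car3, abundant in hepatocytes and muscle, was lower, with a log2 difference of -7.86 in DDC livers (adjusted p = 2.39e-05) and -7.01 in untreated livers (adjusted p = 0.000612), and Car5a, a mitochondrial form, was 17.0-fold lower in untreated livers (adjusted p = 0.0230). On the dimmer side in DDC livers, Car3 was well above background on 1 of 4 arrays, Car9 on 2 and Car4 on 3. Car3 was also lower with DDC in M+133+ cells (-4.39, adjusted p = 0.0454), and Car1 was lower with DDC in M-133- cells (-3.35, adjusted p = 0.0491).

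Of 9 other aquaporins, Aqp3 was 7.70-fold higher in M+133+ cells of DDC livers (adjusted p = 0.0187). Aqp9, a glycerol and water channel of hepatocytes, was lower by 31.7-fold in DDC livers (adjusted p = 0.00923) and 156-fold in untreated livers (adjusted p = 0.00452), and the remaining aquaporins were not called. On 3 of 5 M+133+ untreated arrays Aqp9 was well above background. Of 26 tested genes that set the driving force, 9 were called higher and 2 lower in DDC livers, and 4 higher and 2 lower in untreated livers. Kcnn4, a calcium-activated potassium channel, was higher by 8.70 on the log2 scale in DDC livers (adjusted p = 9.45e-06) and by 5.66 in untreated livers (adjusted p = 0.00254). Fxyd3, a modulator of the sodium pump, was higher by 8.75 and 8.82 (adjusted p = 2.61e-05 and 0.000273). Fxyd1, of the same family and abundant in muscle, was 137-fold lower in DDC livers (adjusted p = 0.000274), and Fxyd5 was 41.5-fold lower in untreated livers (adjusted p = 0.00148). On the dimmer side, Fxyd1 was well above background on 3 of 4 M+133+ DDC arrays. Fxyd3 was so on 3 of 4 M-133- DDC and 2 of 3 M-133- untreated arrays.

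**Figure D4:**
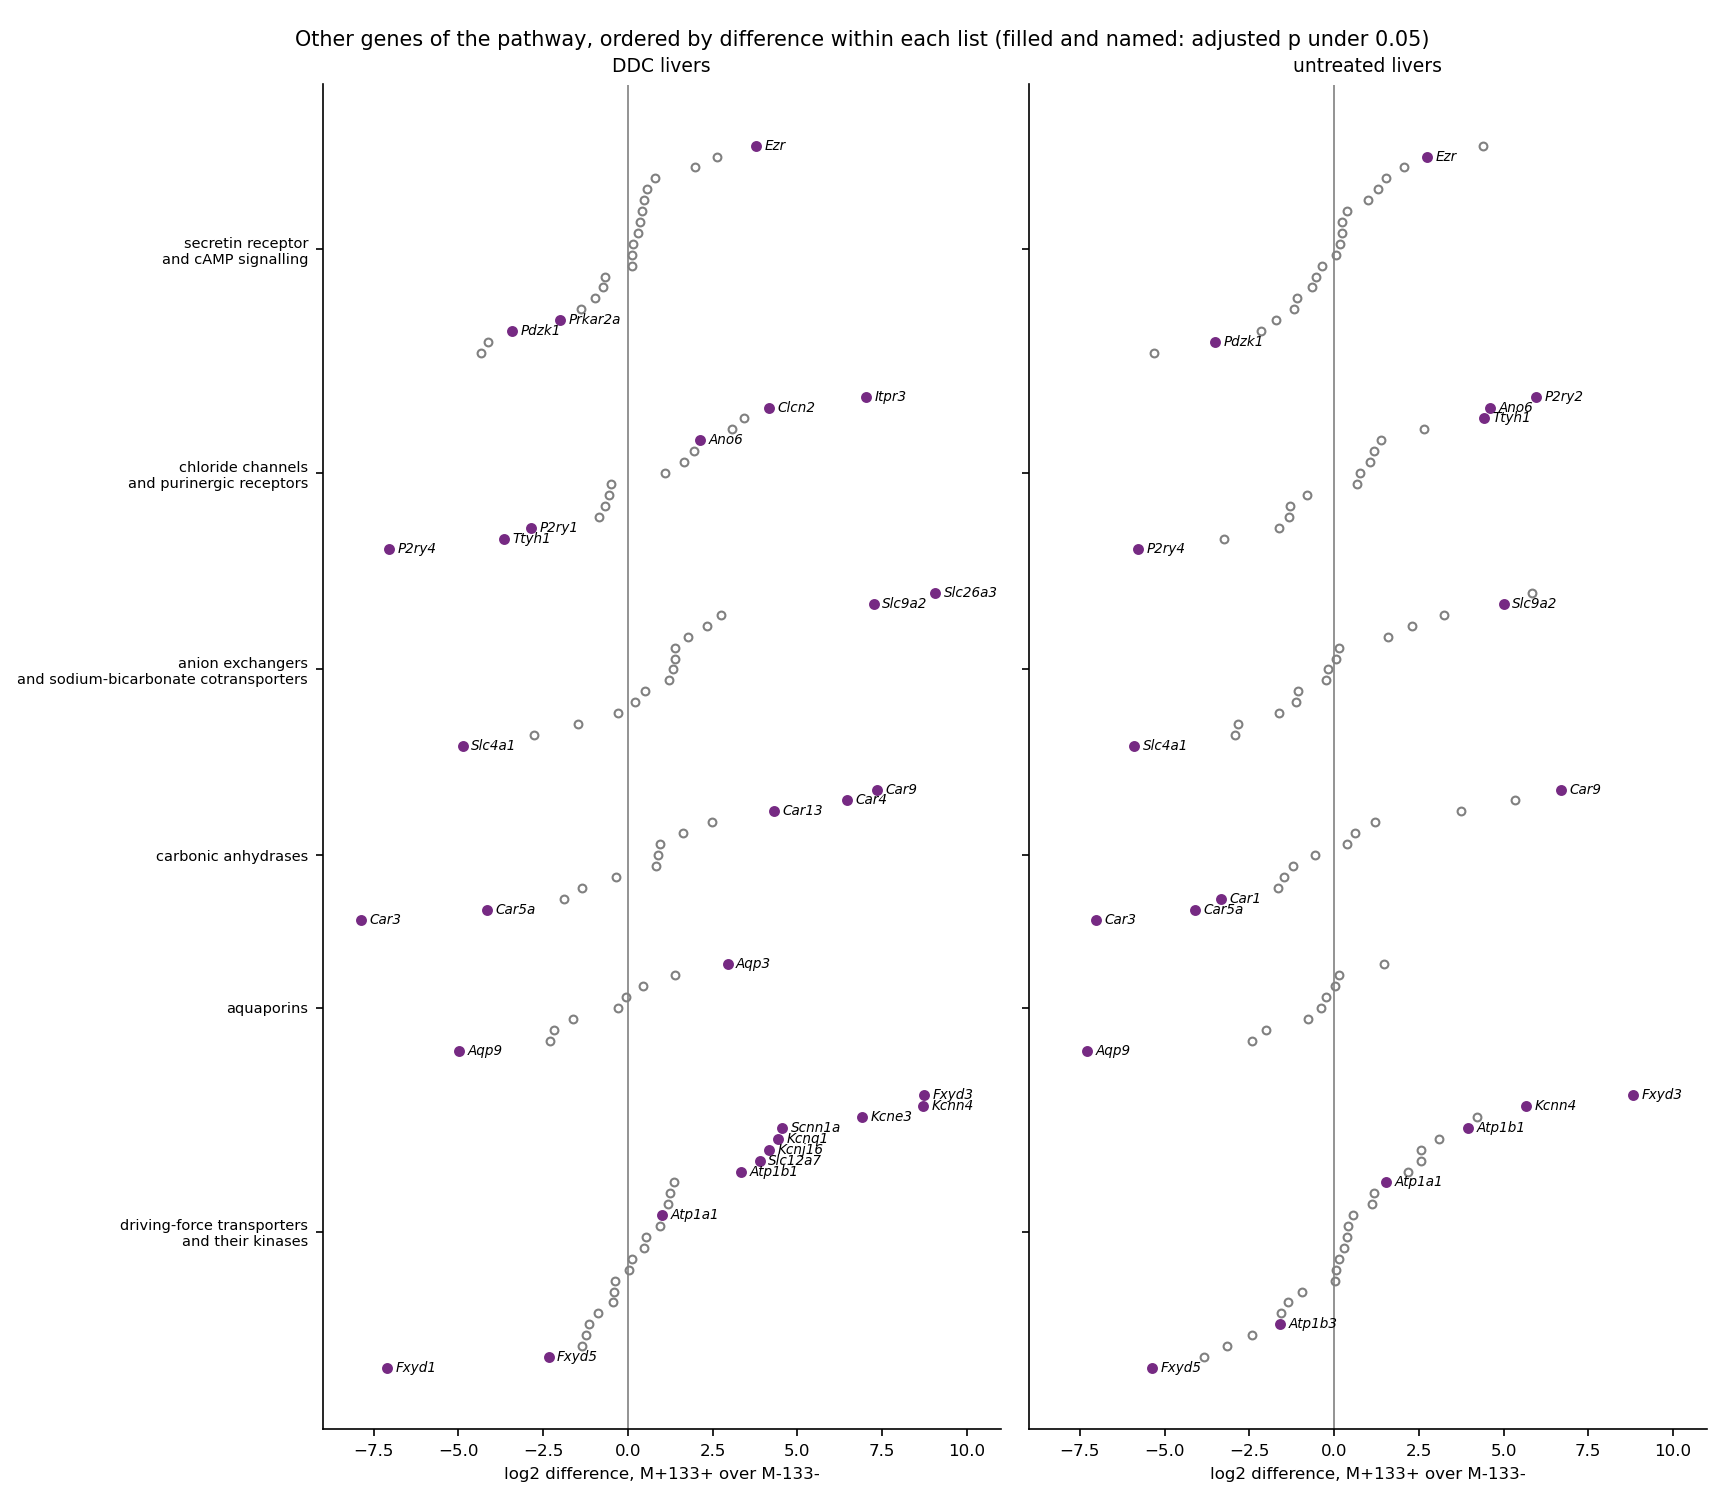
Log2 difference, M+133+ over M-133- cells, of the tested genes of 6 pathway lists, ordered within each list, for DDC livers on the left and untreated livers on the right. Filled and named points had an adjusted p under 0.05, and the driving-force list holds the most, with 9 higher in DDC livers.

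Genes whose centred levels ran closest to those of a member over the 14 samples were found among 17285 named genes, by the root mean square difference in log2 units. For Cftr they were Cracdl, Dtx1 and Rsph9, at 0.68, 0.73 and 0.87, where the level of Cftr itself varied with a root mean square of 2.26. For Ano1 they were Wfdc2, Cyb561 and Rab27b, at 1.16, 1.17 and 1.21, and for Aqp5 they were Esrp1, Ehf and Pkp3, at 0.72, 0.81 and 0.86. For Aqp1 they were Aass, Maf and Gpr182, at 0.41, 0.53 and 0.56, and for Aqp8 they were F11, Mtarc1 and Hao1, at 0.78, 0.82 and 0.96. For Car2 they were Psrc1, Mpzl2 and Tcf7l2, at 0.55, 0.55 and 0.64, and for Slc12a2 they were Anxa3, Cox7a1 and Eif2ak3, at 0.72, 0.83 and 0.85. For Slc4a4 the nearest was Erbb3 at 0.86, for Slc4a2 it was Zbtb18 at 0.34, and for Sctr it was Upk3b at 1.11. None of the members was the nearest gene of another member.

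The authors' deposited table gives its own signed fold changes, with M-133- over M+133+ cells, so its signs run against those above. In the authors' deposited table Ano1 had -37.0 in DDC livers and -1000 in untreated livers, with false discovery rates of 0.35% and 0%. For Cftr the authors' deposited table gives -333 and -500 by probe 1, and -13.5 to -10.8 and -30.3 to -18.9 over the 10 spots of probe 2. Aqp8 had 194 and 40.9 in the authors' deposited table, on the M-133- side. For Aqp1 the authors' deposited table gives a false discovery rate of 7.89% in DDC livers, where the fit above called the gene, and 4.12% in untreated livers, where it did not. Slc4a4 probes 1, 2 and 3 had rates of 0.89%, 3.23% and 0.61% there in untreated livers, where probe 1 was not called above. In DDC livers the rates of these probes were 13.96%, 1.47% and 43.47%, where probe 1 was called above. For Sctr the authors' deposited table gives -2.19 and -8.20 with rates of 100% and 13.1%. Ano1 in M-133- cells had a DDC over untreated fold of 49.0 and a rate of 5.64% in the authors' deposited table.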

How the data were processed

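RNA from sorted cells was amplified as cDNA (WT-Ovation Pico), labelled with Cy3 and hybridised in 1 colour, per the labels' protocols. Per the file headers, the deposited files hold each spot's processed intensity from Agilent Feature Extraction 10.5.1.1, with raw means and local background medians as intensity. The authors' deposited table gives signed fold changes and false discovery rates in percent, both entered as scores, and the submitters' processing notes name limma, without saying how. Coordinates of probes are mm9, per the array annotation. Of 41174 probes, 26690 were named through RefSeq accession, 5189 by symbol, 952 by synonym (GRCm38.p6, names only) and 8343 kept the file's name.

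Here the log2 processed signal had the array's 75th percentile subtracted; outlier spots were dropped, and spots and then repeat arrays were averaged. A probe stayed in the fit if 0.5 or more of any group's samples had it well above background, and the brightest kept probe stood for a gene. All 13 member probes passed. Because the M-133- untreated group holds 2 samples, all 14 samples shared one limma 3.58.1 fit in R 4.3.3 (group means, eBayes with intensity trend, two-sided, Benjamini-Hochberg over 23312 genes). Probes were also fitted separately, an alternative chosen after seeing the data. The number of arrays limits the precision. The fit was also run on simulated data of independent normal values, in which chosen genes were shifted by a set amount. These data held no slide, prefix or background structure, so that run cannot show how such features move the calls. Tables and figures used Python 3.11.15, pandas 2.3.3 and matplotlib 3.10.9.

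The members and lists were chosen with earlier results of these data known. Named pathway genes are, per list and comparison, up to 3 called genes of largest difference whose groups did not overlap; the plot labels every called one. The likeness rule names the 3 nearest genes. Beside these, Spp1, Sox9, Des, Ngfr and Rgs5 are named because they were the called members of small counts. Replicate numbers did not pair the samples, as same-numbered samples had deviations that correlated between -0.15 and 0.08. Alternatives were normexp (offset 50), quantile normalization, other filters, probe means, no trend, single repeat arrays, slide blocks, replicate blocks and leaving out each sample. Serpina1a, Hbb-b1 and Ly6g of the marker lists did not match and were not used here. Promoters came from RefSeq, and protein sequences were not used here.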

Additional observations from a re-analysis of the deposited data

Results flagged for a closer look

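Of 39 groups of 4 samples tested by Dixon's criterion for a sample far from the rest, 2 had one, and chance alone gives about 1 in 20. Sctr read -3.20 in M+133+ DDC sample 3, where the other M+133+ DDC samples were between -8.75 and -7.88. Car2 read 2.16 in M+133+ untreated sample 4, where the other M+133+ untreated samples were between 3.06 and 3.14.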

How the results depend on the processing

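Calls in untreated livers rest on 2 M-133- samples. Low probes such as Sctr differed widely between repeat arrays of one sample, and brighter probes could differ too. The repeat arrays of M-133- untreated sample 2 read 1.68 and 0.20 for Slc4a2, 1.44 and 2.79 for Car2, and 6.03 and 7.28 for Aqp1. Those of M+133+ untreated sample 1 lay closer, at 2.94 and 3.51, 3.22 and 3.06, and 4.04 and 4.12 in the same order. The sort differences of Ano1, Cftr, Aqp5, Slc4a2 and Aqp8 kept their direction under every alternative tried. Leaving out each sample in turn gave 818 to 2213 genes called between the sorts in untreated livers (lowest without M-133- untreated sample 1), 2407 to 2947 in DDC livers, 6 to 114 for DDC in M+133+ cells (highest without M+133+ DDC sample 3), 76 to 281 for DDC in M-133- cells and 18 to 109 for the interaction, against 2050, 3011, 56, 237 and 60 with all samples. Members called higher then ranged over 3 to 4, 5 to 6, 0 to 1, 0 to 1 and 0 to 0, and lower over 0 to 1 in untreated livers. The lower call lost was Aqp8, and the higher ones were Aqp5 and Slc4a2 in untreated livers, Slc4a4 in DDC livers and Ano1 with DDC in M-133- cells.

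With the replicate block, the samples sharing only a number, no member was called lower in untreated livers (0; Aqp8 -4.99, adjusted p = 0.0577), Slc4a4 lost its call in DDC livers (adjusted p = 0.0534), and 20, 115 and 24 genes were called for DDC in M+133+ cells, DDC in M-133- cells and the interaction. The block on the number that opens the titles left 822 genes and 1 member called higher in untreated livers and 1 gene for the interaction. The fixed slide block left 0 members lower in untreated livers, 1143 genes with 3 members higher and 1 lower in DDC livers, and 15, 144 and 11 genes for the other comparisons. For DDC in M+133+ cells, quantile normalization called 136 genes, a stricter filter 91, probe means 87 and no trend 22. For the interaction, normexp called 38, no trend 37, and quantile normalization called 1 member lower. With normexp 0 members were higher with DDC in M-133- cells. The share of called genes that were higher in untreated livers was 41.3%, against 29.9% with normexp and 50.3% with quantile normalization; for DDC in M-133- cells it was 60.3%, against 41.3% and 74.5%.

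No reversed difference was called. With quantile normalization the DDC difference in M-133- cells was 0.28 for Aqp5, 0.0868 for Cftr, 0.29 for Sctr and 0.0657 for Slc12a2; with the second repeat array it was 0.25 for Aqp5 and 0.0901 for Car2; with the replicate block it was 0.0052 for Car2 and 0.16 for Slc12a2. Slc4a2 reached 0.13 with DDC in M+133+ cells under the fixed slide block, and the Sctr interaction 0.41 with normexp. The Slc4a4 interaction, 0.15 with probe 1, was -0.45 with quantile normalization, -0.96 with probe means, -0.56 with the second repeat array, -1.18 and -0.65 with the slide and replicate blocks, -1.23 and -1.81 by probes 2 and 3, and -0.97 to 1.09 with samples left out. Leaving out samples also gave -0.0613 to 1.79 for Sctr between the sorts in DDC livers and -1.77 to 0.0217 for Aqp8 with DDC in M+133+ cells (both turned without M+133+ DDC sample 3). It gave -1.19 to 0.20 for Aqp5 and -0.58 to 0.0544 for Car2 with DDC in M-133- cells (turned without M-133- untreated samples 2 and 1). The cause of these changes was not tested.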
